A study of Homo sapiens with 16 samples.

Results

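The 9 heat shock protein genes described here were HSPA1A, HSPA1B, HSPA8, HSPH1, DNAJB1, HSP90AA1, HSP90AB1, HSPB1 and HSF1. The data on them are every base that the authors called as an m6A position in any of 8 libraries and that lay inside the RefSeq span of 1 of these genes, on the strand of that gene. There were 260 such bases, of 452349 bases called in all. Of the 9 genes, 7 held a called base, among 13086 genes that did. HSPA1A and HSF1 held none. The spans on hg38 (GRCh38.p14) are chr6:31815543-31817942 for HSPA1A, chr6:31827738-31830254 for HSPA1B, chr6:44246194-44253883 for HSP90AB1 and chr7:76302673-76304292 for HSPB1, all on the plus strand, as is HSF1 on chromosome 8. On the minus strand are HSPA8 at chr11:123057489-123062462, HSPH1 at chr13:31134973-31162388, HSP90AA1 at chr14:102080742-102139749 and DNAJB1 at chr19:14514769-14560391.

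N6-methyladenosine (m6A) is a mark on messenger RNA that the METTL3 and METTL14 methyltransferase writes, mostly far from the 5′ end. Near the 5′ end a related mark, N6,2′-O-dimethyladenosine (m6Am), can occupy the first transcribed nucleotide, is written by another enzyme and is also bound by m6A antibodies. Heat shock proteins are chaperones that keep other proteins folded: HSP70 proteins bind unfolded stretches, J proteins deliver clients to them, HSP110 proteins exchange their nucleotide, HSP90 proteins mature kinases and receptors, and small heat shock proteins hold aggregating clients. HSF1 is the transcription factor that switches these genes on under stress.

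The samples were 3 states of U87 MG, an established human glioma line. U87 was the parental line, and U87-R was a subline that resists the alkylating drug temozolomide (TMZ), kept with 50 µM TMZ in its medium. Both carried a DMSO control label. The remaining group was U87-R given 50 µM STM2457, an inhibitor of METTL3, for 96 hours. In m6A-eCLIP, fragmented polyA RNA is crosslinked to an m6A antibody, and each called base carries a score. There were 3 U87, 3 U87-R and 2 STM2457 libraries, and 8 input samples were not analysed here. U87-R is a single resistant subline, and nothing in the labels says whether replicates were separate cultures, so a p-value measures only the spread between these libraries.

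Over all genes, the libraries held 149477 to 192697 called bases without STM2457 and 105900 and 110875 with it. The heat shock protein genes held 113 to 146 called bases in the 6 libraries without STM2457, and 104 and 96 with it. The formula of the score is not stated, no read count or coverage comes with it, and depth was unknown. Bases missing from a library's list carry no value there and entered sums as 0. No value here is a methylation level, and fewer RNA copies and less m6A per copy could not be told apart.

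Scores were summed per gene, and also separately for bases within 50 nt of an annotated start (RefSeq on GRCh38.p14) and for bases beyond 50 nt. Distances below count from the nearest annotated start, which is 0, with negative values upstream. Changes are differences of log2(sum + 1) with their standard error (SE), from limma fitted to all genes and Benjamini-Hochberg adjusted over all of them. A change was called at an adjusted p under 0.05. The log2(sum + 1) scale understates the change of low values above 0. Where a value was 0 in a group, the size of the change depends on the added 1. Over the alternative settings, 1 of which added 10, the HSPA1B base at +2185 ranged from -6.39 to -3.10. The DNAJB1 base at +1114 ranged from -6.15 to -2.84, and the sum of the cochaperone gene CACYBP from -6.29 to -3.12.

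Sequences around the starts are shown first, because starts and the rest of each gene were tested separately. Each run is 30 bases of RefSeq sequence on GRCh38.p14, 5′ to 3′ on the strand of the gene, and capitals mark the bases called in at least 2 libraries of 1 group.
HSPA1B, chr6:31827722-31827751, plus strand: gggcgcgcggtccgGAAaacggccagcctg
HSP90AA1, chr14:102087029-102087058, minus strand: gggggtggcgcgtCAGTTgcttcagcgtcc
HSP90AB1, chr6:44247081-44247110, plus strand: acttggggcacgcagTAgctctctcgagtc
HSPB1, chr7:76302662-76302691, plus strand: cccagcgccccgcACttTTctgagcagacg
HSPB1, chr7:76302608-76302637, plus strand: caaacaccgcctgcTAAaaatacccgactg
DNAJB1, chr19:14518383-14518412, minus strand: ggactggtcggcggCGgAgccgggggacgg
DNAJB1, chr19:14518409-14518438, minus strand: tccgccggacgggTATATAgagtccgggac

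In HSP90AA1 the 5 capitals ran from -1 to +3 and surround the annotated start. In HSPA1B the capitals were -2, -1 and 0, in HSP90AB1 they were -5 and -4, and in HSPB1 the first run holds +2, +3, +6 and +7. The second HSPB1 run lies upstream of the annotated span, at -51 to -49. The second DNAJB1 run lies upstream of the start used by the first, at -28 to -23, and its capitals cover a TATATA stretch. It lies inside the span of DNAJB1, because RefSeq also annotates starts farther upstream. Among bases at -50 to +49 that at least 2 libraries of 1 group listed, these genes held 27. Of these, 11 (40.7%) were A and 10 (37.0%) were T, whereas A made up 20% and T 20.5% of all letters at these distances. Over all genes, 10217 of 20628 bases chosen in the same way (49.5%) were A and 3798 (18.4%) were T. Called bases were thus not always an A, and some neighbours carried a single value: of 236 pairs of adjacent called bases in these genes, counted over libraries, 19 had the same score within 0.001.

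Promoters of these genes are known for heat shock elements, where HSF1 binds. The letters GAANNTTC, an inverted pair of the element's units that reads the same on both strands, occurred in 8 of 13 promoter windows of these genes and in 2377 of 35116 windows of the table (6.77%). A window covers 250 bases before to 50 after a start. Of the 8 genes with a window, 7 held the letters at least once, and HSPH1 did not.

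HSP90AA1 held 79 different called bases, DNAJB1 62, HSPA1B 40, HSP90AB1 24, HSPA8 and HSPB1 19 each and HSPH1 17. Of the 260, 52 were called in all 8 libraries and 79 in 1 library. Of the 35 that lay within 50 nt of a start, 15 were in DNAJB1, and HSPA8 had none. The sums below follow the abundance of each RNA as well as its m6A and are not divided by length, so they are compared between libraries and not between genes.

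**Figure D1:**
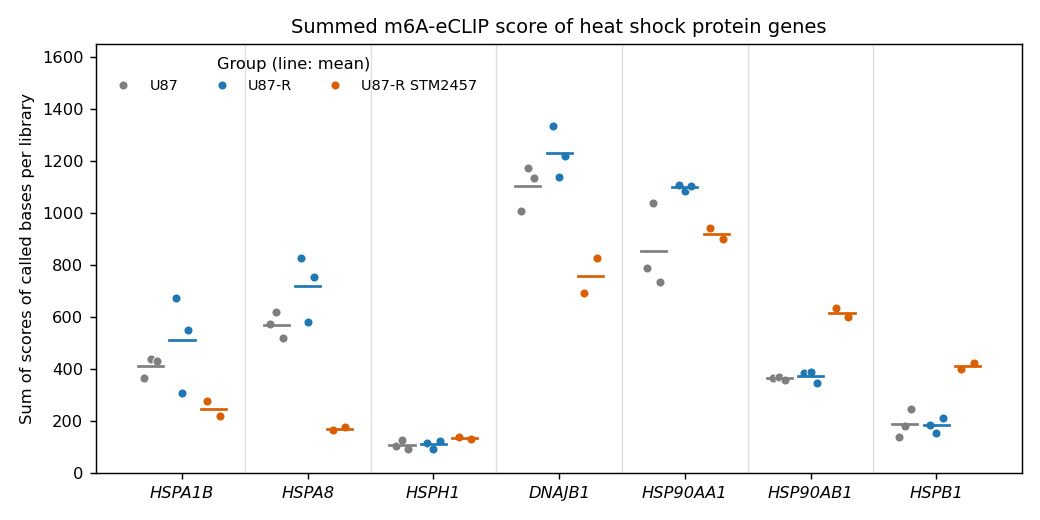
Summed score of each gene (y axis, linear, no unit) in every library, by group, with a line at the group mean. The STM2457 libraries lie below both other groups for HSPA8 and DNAJB1 and above them for HSP90AB1 and HSPB1. The ranges of U87 and U87-R overlap for each gene but HSP90AA1, which did not pass the test between these groups.

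No heat shock protein gene passed the test between U87-R and U87. Of the 7 genes with a called base, all tested, 0 rose and 0 fell, against 0.894% of 10519 genes tested that rose and 0.371% that fell. At an unadjusted p under 0.05, limma gave 1316 genes of all 10519. The median change of the 7 was 0.16, beside 0.12 over all genes. HSP90AA1 had the largest difference, at 0.38 ± 0.14 (SE, adjusted p = 0.319, limma). Its sums were 788, 1039 and 735 in U87 and 1108, 1085 and 1102 in U87-R, so that the groups did not overlap. The share of all genes without overlap was not counted, so this separation is not read as a difference. HSPB1 was at -0.01 (adjusted p = 1) and HSP90AB1 at 0.04 ± 0.12 (adjusted p = 0.955). Blocking on the replicate number gave 68 calls over all genes in place of 133, and none of them was a heat shock protein gene.

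With STM2457 against U87-R, 3 of the 7 heat shock protein genes tested were called lower and 2 higher. This comparison uses the same U87-R libraries as the one before it. HSPA8, HSPA1B and DNAJB1 fell, HSP90AB1 and HSPB1 rose, and HSP90AA1 and HSPH1 did not pass the test. Of all 10519 genes, 37.8% fell and 6.29% rose, with a median of -0.68, beside a median of -0.26 over the 7 genes. With each library centred on its median over genes, the median of all genes moved to -0.12 and the calls split into 1612 higher and 2549 lower, in place of 662 and 3980. With each library scaled to the mean total, the split was 1928 and 2215. Under either scaling HSPA1B and DNAJB1 were not called, and HSPH1 was called higher.

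**Figure D2:**
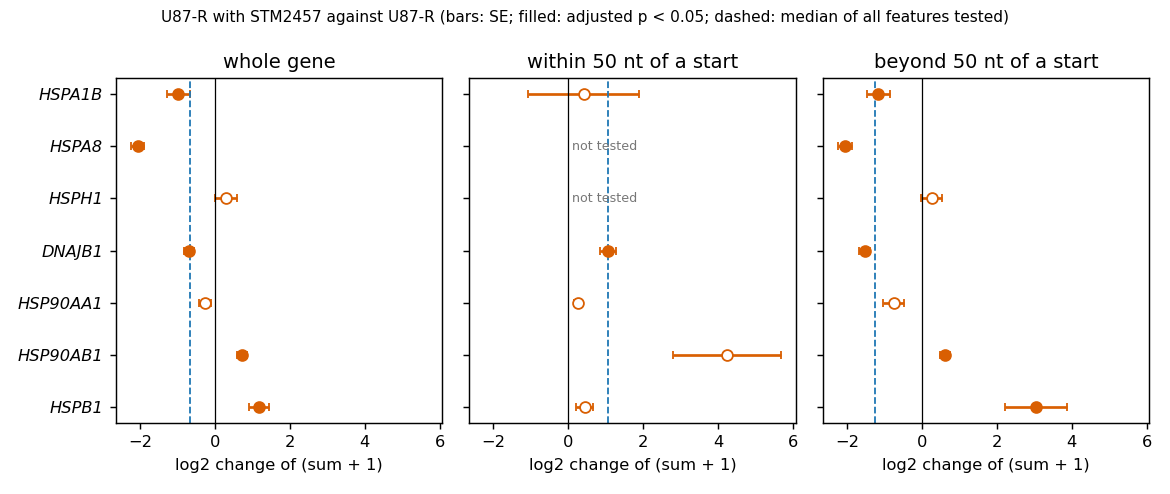
Change of log2(sum + 1) with STM2457 in U87-R (x axis) for the whole gene, for bases within 50 nt of an annotated start and for bases beyond, with SE bars; filled points passed an adjusted p of 0.05 and the dashed line is the median of all features tested. HSP90AB1 and HSPB1 lie to the right of zero in the third panel, where the median of all genes is -1.26.

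HSPA8, the constitutive cytosolic HSP70 that folds new proteins and strips clathrin, had the largest drop of the 7. Its sums were 574, 618 and 519 in U87, 826, 579 and 754 in U87-R, against 164 and 175 with STM2457. Both STM2457 libraries lay under every other library. The change was -2.06 ± 0.18 (SE, limma adjusted p = 9.91e-05), and it was called in all 13 alternatives, between -2.23 and -1.37.

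HSPA8 had no called base within 50 nt of an annotated start in any library. Its bases lay in the middle of the gene and near its 3′ end. From +4288 to +4463, ending 184 nt before the 3′ end of the span, the summed score was 471 ± 73.6 (SD, n = 3) in U87-R and 155 ± 4.09 (n = 2) with STM2457, a ratio of means of 0.329. From +2455 to +2578 it was 206 ± 57.1 and 14.8 ± 3.25, a ratio of 0.0719. Of 15 bases tested, 11 fell and 0 rose, where 16.9% of 188742 bases fell over the whole data and 6.65% rose.

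The highest HSPA8 base, at +4455 (chr11:123057681, minus strand), scored 82.5, 86.6 and 91.0 in U87-R, against 34.3 and 34.5 with STM2457. It fell by 1.31 on the log2 scale (adjusted p = 0.000244), and the base at +4440 by 1.28 (adjusted p = 0.000397). At +4462 the scores were 99.3, 51.5 and 109 in U87-R, against 41.3 and 42.0 with STM2457, which did not pass the test (-0.97, adjusted p = 0.2). The base at +2533 scored 33.5 ± 2.62 in U87-R and was listed in neither STM2457 library. The authors' deposited lists of reproducible sites had 1 site in HSPA8 for U87, 1 for U87-R and 0 for STM2457, and their peak lists had 10, 11 and 0 peaks.

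HSPA1B, a heat-inducible HSP70, lies on chromosome 6 beside HSPA1A, whose protein is nearly identical. HSPA1A had no called base, no reproducible site and no peak on either strand. Which of the copies the HSPA1B scores come from is uncertain, since no source used here says how reads that fit both genes were treated.

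The HSPA1B sums were 367, 440 and 432 in U87, 673, 309 and 548 in U87-R, against 275 and 220 with STM2457. The STM2457 libraries were the lowest, and U87-R replicate 2 lay close above them. The change was -0.98 ± 0.30 (adjusted p = 0.0282). It held in 5 of 13 alternatives and was lost without U87-R replicate 1 (adjusted p = 0.0746), without U87-R replicate 3 (adjusted p = 0.0826), without either STM2457 library (0.0994 and 0.2), with only bases that scored 10 or more (0.0547), with centring (-0.42, adjusted p = 0.133) and with scaled totals (-0.29, adjusted p = 0.337).

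Most of the HSPA1B score lay near the 3′ end. The bases from +2038 to +2334 made up 83.1% of the U87-R sum, and they went from 400.2 ± 115 to 200.2 ± 29.7 with STM2457. Beyond 50 nt of the start the change was -1.17 ± 0.31 (adjusted p = 0.0111), called in 12 of 16 alternatives and at 0.06 (adjusted p = 0.833) with centring. Inside this stretch, neighbours moved differently. The base at +2185 (chr6:31829923) scored 92.4, 63.4 and 74.1 in U87-R, 78.3, 64.4 and 69.3 in U87, and was listed in neither STM2457 library (log2 change -6.26, adjusted p = 1.65e-05). At +2176, a few bases before it, the scores were 94.4, 104 and 101 in U87-R, against 76.9 and 75.8 with STM2457 (-0.38, adjusted p = 0.03). That call was lost without U87-R replicate 2 or 3 (adjusted p = 0.0552 and 0.0745) and without either STM2457 library. It was also lost with centring (adjusted p = 0.0966), with the replicate block (0.0998) and with every base called in at least 1 library tested (0.147). The base at +2039 did not pass the test, with U87-R scores of 97.0, 73.6 and 74.9 and STM2457 scores of 90.2 and 79.8 (0.06, adjusted p = 0.814). Of the 5 reproducible sites that the authors' deposited list gives HSPA1B in U87-R, 3 were also listed with STM2457.

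At the start of HSPA1B the annotated first base scored 27.4 ± 12.8 in U87-R and 46.8 ± 7.92 with STM2457, which did not pass the test (0.87, adjusted p = 0.668). The bases at -2 and -1, just outside the span, had higher scores. At -1 they were 43.4, 48.1 and 55.1 in U87, 59.0, 42.6 and 58.8 in U87-R, against 118 and 125 with STM2457. Both STM2457 values were above all others, and the change was 1.18 ± 0.19 (adjusted p = 0.00309). With spans extended 100 nt upstream, an alternative chosen after seeing the data, the whole-gene change of HSPA1B was -0.31 (adjusted p = 0.377), its start rose by 0.97 (adjusted p = 0.0424) and its ratio of start to rest by 2.13 (adjusted p = 0.00499).

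HSPH1, an HSP110 that releases nucleotide from HSP70, carried its score away from its start. Its sums were 105, 128 and 92.8 in U87, 116, 91.1 and 124 in U87-R, against 138 and 132 with STM2457. The STM2457 libraries were the highest, but the change did not pass the test (0.29 ± 0.28, adjusted p = 0.428). Centring gave 0.85 (adjusted p = 0.0344), and scaling to the mean total gave 0.98 (adjusted p = 0.0169), so that HSPH1 was called under either.

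Near its 2 ends HSPH1 had values of opposite direction. From +374 to +533 the summed score was 51.1 ± 15.8 in U87-R and 132 ± 8.58 with STM2457, a ratio of 2.57. From +25060 to +25114, 2301 nt from the 3′ end of the span, it was 55.9 ± 26.5 in U87-R and listed at 0 in both STM2457 libraries. The base at +25060 (chr13:31137328, minus strand) scored 44.2, 20.6 and 34.3 in U87-R and was listed in neither STM2457 library (log2 change -5.03, adjusted p = 0.000313). The highest base, at +443, scored 11.3, 30.8 and 24.4 in U87-R, against 49.1 and 48.9 with STM2457, and did not pass the test (1.22, adjusted p = 0.0865). The base at +442 scored 11.3, 24.7 and 24.4 in U87-R, against 49.1 and 48.9 with STM2457 (1.32, adjusted p = 0.0455). The call at +442 was lost without U87-R replicate 3 (adjusted p = 0.0512) or either STM2457 library. It was also lost with centring (adjusted p = 0.0857), with the replicate block (0.0596) and with every base called in at least 1 library tested (0.113).

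DNAJB1, a stress-inducible J protein that stimulates HSP70, fell as a whole. Its sums were 1007, 1172 and 1134 in U87, 1336, 1138 and 1218 in U87-R, against 692 and 825 with STM2457. The STM2457 libraries were lower than every other library. The change was -0.70 ± 0.14 (adjusted p = 0.00375), about the median of all genes, and it was not called with libraries centred on their medians (-0.14, adjusted p = 0.433) or scaled to the mean total (-0.01, adjusted p = 0.959).

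Here the start and the rest of the gene parted. Beyond 50 nt of a start the DNAJB1 sums were 894, 1014 and 1026 in U87, 1148, 979 and 989 in U87-R, against 327 and 398 with STM2457. The change was -1.52 ± 0.15 (adjusted p = 7.96e-05), and -0.29 (adjusted p = 0.156) with centring. Over all genes, 54.6% of 9738 fell beyond their starts and 4.8% rose. Within 50 nt of a start the sums were 113, 158 and 108 in U87, 187, 159 and 229 in U87-R, against 366 and 428 with STM2457, a change of 1.06 ± 0.22 (adjusted p = 0.0156), close to the median of all genes there (1.06). Over all genes, 22.5% of 5183 rose within 50 nt of a start and 0.868% fell. The ratio of the 2 sums rose by 2.58 ± 0.37 (adjusted p = 0.00203), where it rose in 55% of 4462 genes and fell in 2.31%.

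Centring each library separately for starts and for the rest took the median of all genes from 1.06 to 0.03 at starts and from -1.26 to -0.03 beyond them. The DNAJB1 start was then at 0.02 (adjusted p = 0.983) and its ratio at 0.27 (adjusted p = 0.675). Over all genes the calls then split into 444 higher and 230 lower at starts, in place of 1167 and 45, into 1981 higher and 2093 lower beyond them, in place of 467 and 5315, and for the ratio into 591 higher and 384 lower, in place of 2453 and 103. The start call of DNAJB1 was also lost without either STM2457 library (adjusted p = 0.0868 and 0.138) and with windows of 25 nt (0.40, adjusted p = 0.3) or 100 nt (0.66, adjusted p = 0.0594).

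A 25 nt window leaves out part of the TATATA stretch. Its bases from -28 to -26 averaged 23.1, 35.9 and 26.9 in U87-R, against 73.5, 90.5 and 94.7 with STM2457, while the base at +2 averaged 31.2 ± 5.71 in U87-R and 20.3 ± 28.8 with STM2457. No single base at the start passed the test. Just past the window, the bases at +58 and +60 scored 36.8 ± 4.67 and 22.6 ± 8.31 in U87-R and were listed in neither STM2457 library (log2 changes of -5.23 and -4.49, adjusted p = 0.000115 and 0.000737).

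**Figure D3:**
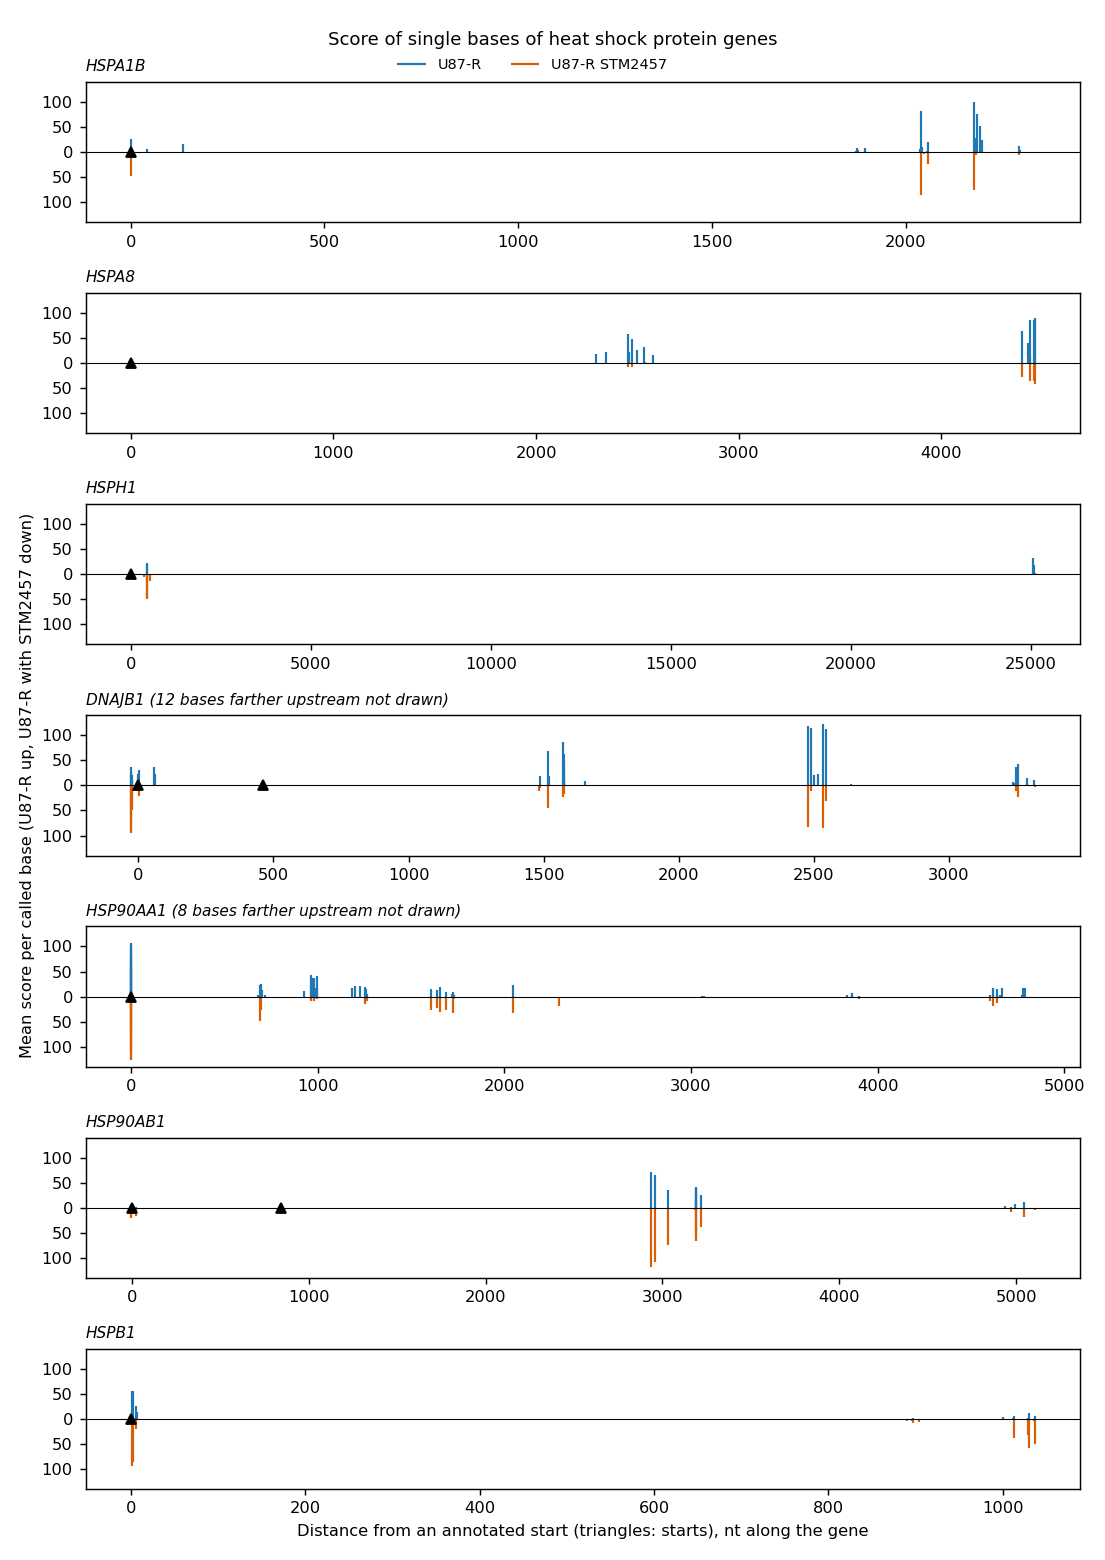
Mean score of every called base in U87-R (upward) and U87-R with STM2457 (downward, drawn as positive scores) against distance along each gene in nt; triangles are annotated starts, and bases and starts more than 200 nt upstream of the drawn origin are left out. In DNAJB1 the bases from -28 to -23 are longer downward and most of those farther along are shorter, whereas in HSP90AB1 and HSPB1 the distant bases are also longer downward.

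Farther along, DNAJB1 lost score unevenly. In the stretch from +2017 to +2085, its richest (513 ± 1.71 in U87-R and 211 ± 15.8 with STM2457), the base at +2074 (chr19:14515863, minus strand) scored 112, 134 and 124 in U87-R, against 80.8 and 90.4 with STM2457, a change of -0.52 (adjusted p = 0.00838, and 0.053 without STM2457 replicate 1). The base at +2085 scored 108, 114 and 119 in U87-R, against 26.7 and 35.0 with STM2457 (-1.86, adjusted p = 0.0001). At +2028 the mean went from 115 ± 6.67 to 10.6 ± 4.66. The base at +1114 scored 62.4 ± 14.5 in U87-R and was listed in neither STM2457 library (-5.96, adjusted p = 0.000155). Of 26 bases tested beyond 50 nt, 10 fell and 0 rose, where 20.2% of such bases fell over all genes and 4.35% rose. The base at +2017 fell by 0.49 (adjusted p = 0.016). That call was lost with centring (adjusted p = 0.0509) and with the replicate block (0.0511). It was also lost with every base called in at least 1 library tested (0.0659).

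The authors' deposited list gives DNAJB1 8 reproducible sites in U87, 10 in U87-R and 6 with STM2457, of which 4 were shared between U87-R and STM2457 (40.0% of the U87-R sites and 66.7% of the STM2457 sites). Over all genes these lists shared 28.6% and 78.6%. DNAJB1 was the only 1 of the 9 genes with called bases on the opposite strand, 10 in all, which were not counted.

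HSP90AA1, the stress-inducible HSP90, carried 40.8% ± 0.281 of its U87-R score at 1 start. Its sums were 788, 1039 and 735 in U87, 1108, 1085 and 1102 in U87-R, against 941 and 898 with STM2457. The STM2457 libraries lay below those of U87-R but within the range of U87, and the change did not pass the test (-0.26 ± 0.16, adjusted p = 0.217). It changed sign under both scalings, to 0.30 with centring (adjusted p = 0.243) and to 0.43 with scaled totals (adjusted p = 0.0785).

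The 5 start bases of HSP90AA1, from -1 to +3, were called in all 8 libraries. Their sum was 438, 374 and 407 in U87, 449, 445 and 452 in U87-R, against 505 and 560 with STM2457. The groups did not overlap, but the change of 0.24 ± 0.10 did not pass the test (adjusted p = 0.113). With scaled totals it was 0.94 (adjusted p = 0.0042), and with centring -0.79 (adjusted p = 0.0878). The base at 0 (chr14:102087044) scored 96.2, 119 and 105 in U87-R, against 127 and 126 with STM2457 (0.25, adjusted p = 0.172). Its neighbours at +1 and -1 did not pass the test either (0.28 and 0.21, adjusted p = 0.261 and 0.259). The last of the 5, at +3, rose from 75.2, 87.9 and 75.9 to 108 and 105 (0.42, adjusted p = 0.0424). The authors' deposited lists give HSP90AA1 1 reproducible site in each group.

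Beyond its start, HSP90AA1 was at -0.76 ± 0.29 (adjusted p = 0.0503, called in 4 of 16 alternatives and at 0.47 with centring), with sums of 659, 640 and 650 in U87-R, against 436 and 338 with STM2457. Its stretches differed in direction. From +927 to +997 the summed score went from 242 ± 17.6 to 29.6 ± 37.4, and from +1609 to +1728 it went from 72.8 ± 10.1 to 145 ± 11.0. Of 39 bases tested beyond 50 nt, 10 fell and 3 rose, beside 20.2% and 4.35% over all genes. The base at +969 scored 36.7 ± 3.09 in U87-R and was listed in neither STM2457 library (-5.23, adjusted p = 8.81e-05). The base at +2294, 1 of the 3 that rose, was listed only with STM2457, at 18.3 ± 1.30. It entered the test through those libraries alone, so its p-value is not given. In the stretch from +4777 to +4791, U87-R had 34.2 ± 3.75, U87 0.507 ± 0.878 and both STM2457 libraries 0. This stretch was picked after seeing the data, and its differences were not tested.

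HSP90AB1, the constitutive HSP90, rose. Its sums were 366, 368 and 356 in U87, 383, 389 and 348 in U87-R, against 635 and 599 with STM2457. Both STM2457 libraries lay far above the 6 others, which were alike. The change was 0.72 ± 0.14 (adjusted p = 0.00291) and was called in all 13 alternatives, between 0.67 and 1.42.

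The bases of HSP90AB1 that rose lay mostly within the body of the gene. Beyond 50 nt of a start its sums were 383, 360 and 348 in U87-R, against 575 and 545 with STM2457 (0.62, adjusted p = 0.00504), where 4.8% of all genes rose. The 4 bases from +2093 to +2191 went from 174 ± 2.15 to 301 ± 1.21. The base at +2093 (chr6:44250036) scored 69.2, 72.9 and 74.4 in U87, 68.2, 74.4 and 72.8 in U87-R, against 118 and 119 with STM2457, a change of 0.71 (adjusted p = 0.00152). At +2118 the U87-R scores were 65.0, 65.9 and 65.5 and the STM2457 scores 108 and 109 (0.72, adjusted p = 0.00187). The base at +2345 had 43.6, 31.8 and 50.1 in U87-R, against 69.0 and 60.5 with STM2457, and did not pass the test (0.64, adjusted p = 0.13). Of 16 bases tested in HSP90AB1, 5 rose and 0 fell, beside 6.65% and 16.9% of all bases. The 5 include the base at +25, which entered the test only through the STM2457 libraries. Of the 16, 1 other base was listed in both STM2457 libraries and in no other library.

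At the start of HSP90AB1, bases were called in 1 library without STM2457, U87-R replicate 2, with a sum of 28.8, and in both STM2457 libraries, with 59.8 and 54.1. The change of 4.22 ± 1.44 did not pass the test (adjusted p = 0.0767). Without U87-R replicate 2 it was 5.85, with every remaining library without STM2457 at 0 and so without spread. It was called with scaled totals (4.73) and with a pseudocount of 10 (2.09). The start reached a sum of 10 in 2 libraries only through the STM2457 libraries, so the p-values of these calls are not given. The base at +25 alone rose, by 3.55, and it entered the test only through the STM2457 libraries. The authors' deposited lists held 0 reproducible sites in HSP90AB1 in any group, and 4 peaks in U87, 5 in U87-R and 16 with STM2457.

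HSPB1 (HSP27), a small heat shock protein that holds unfolding proteins and binds actin, had the largest rise of the 7. Its sums were 137, 181 and 245 in U87, 183, 155 and 212 in U87-R, against 400.4 and 425 with STM2457. Both STM2457 libraries lay above all others. The change was 1.18 ± 0.27 (adjusted p = 0.00707), and the call was lost without STM2457 replicate 1 (adjusted p = 0.0515) or STM2457 replicate 2 (adjusted p = 0.0598).

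In HSPB1 the start did not pass the test while the rest of the gene rose. Within 50 nt the sums were 120, 142 and 194 in U87-R, against 196 and 207 with STM2457, a change of 0.43 ± 0.22 (adjusted p = 0.188). It was 1.12 with scaled totals (adjusted p = 0.0111) and -0.61 with centring (adjusted p = 0.27). Among its bases the one at +2 rose, from 55.4, 53.5 and 57.5 in U87-R to 92.1 and 97.5 with STM2457 (0.76, adjusted p = 0.00535), as did that at +3 (0.64, adjusted p = 0.0121, and 0.0763 with centring). The base at +6 did not pass the test (-0.12, adjusted p = 0.948). Upstream of the span, the bases at -51 and -50 averaged 91.8 ± 4.51 and 84.8 ± 8.61 in U87-R, against 121 ± 1.35 and 123 ± 12.5 with STM2457 (0.39 and 0.53, adjusted p = 0.0382 and 0.0267).

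Beyond 50 nt, the HSPB1 sums were 18.9, 70.1 and 101 in U87, 62.4, 13.3 and 17.8 in U87-R, against 204 and 218 with STM2457. The change of 3.04 ± 0.82 (adjusted p = 0.012) was lost without either STM2457 library (adjusted p = 0.0866 and 0.0895) and with only bases that scored at least 10 (adjusted p = 0.0605). With spans extended upstream, which adds the bases at -85 and -51 to it, the change was 1.11 (adjusted p = 0.00396). The score lay from +890 to +1037, up to 582 nt from the 3′ end, where it went from 29.0 ± 23.5 in U87-R to 207 ± 4.17. The base at +1037 (chr7:76303710) averaged 19.6 in U87, 5.12 ± 4.89 in U87-R and 50.7 ± 3.63 with STM2457 (3.36, adjusted p = 0.026). The bases at +1013 and +1029 rose as well (2.56 and 4.40, adjusted p = 0.0314 and 0.0124). Without STM2457 replicate 1 none of the 3 was called (adjusted p = 0.146, 0.13 and 0.101 in the order named), nor without STM2457 replicate 2 (0.16, 0.168 and 0.0854). The calls at +1013 and +1037 were also lost without U87-R replicate 2 (adjusted p = 0.0655 and 0.0631) or U87-R replicate 3 (0.0607 and 0.0717), and that at +1013 without U87-R replicate 1 (0.0609).

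The share of a gene's summed score within 50 nt of an annotated start went in both directions. In DNAJB1 it was 11.2%, 13.5% and 9.55% in U87, 14.0%, 14.0% and 18.8% in U87-R, against 52.8% and 51.8% with STM2457. In HSPA1B it was 5.02%, 8.14% and 8.92%, and then 19.1% and 18.7%. In HSP90AA1 it was 40.5%, 41.0% and 41.0%, and then 53.7% and 62.3%. In each of these 3 genes the exact two-sided permutation test gave p = 0.1, the smallest that 3 against 2 libraries allow. In U87, HSP90AA1 had 36.0% to 55.5%, a range that covers 1 STM2457 library. The size of the DNAJB1 difference depended on the measure, at 9.51 percentage points with a 25 nt window, 31.8 with a 100 nt window, and 7.82 for the share of called bases in place of score. By that share of called bases, HSPA1B was at -4.12 points in place of 11.5, and HSP90AA1 at 6.56 in place of 17.1.

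HSPB1 went the other way, from 65.8%, 91.5% and 91.6% in U87-R to 49.0% and 48.7% with STM2457 (exact permutation p = 0.2). HSP90AB1 had 0%, 7.41% and 0% in U87-R, against 9.42% and 9.03% with STM2457 (exact permutation p = 0.2), and HSPA8 had no score there. Over all genes the share was 9.53% to 11.9% in U87-R, against 30.5% and 29.3% with STM2457. Of the ratios tested in limma, DNAJB1 rose, 0 fell and 4 of 5 did not pass the test, with HSPB1 at -2.61 ± 0.95 (adjusted p = 0.0515) and HSP90AA1 at 1.00 (adjusted p = 0.0956). With centring the HSPB1 ratio was -4.92 (adjusted p = 0.0123), and without U87-R replicate 1 it was -3.42 (adjusted p = 0.0175).

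**Figure D4:**
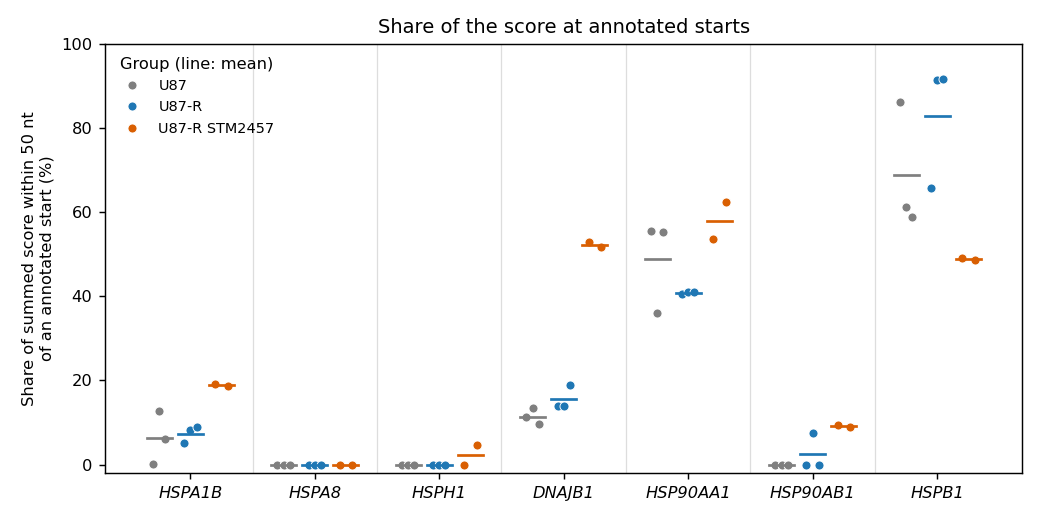
Share of each gene's summed score that lay within 50 nt of an annotated start (y axis, %) in every library, by group, with a line at the mean. The DNAJB1 share is 9.55% to 18.8% in the 6 libraries without STM2457 and above 50% in both with it, and the HSPB1 share is lower with STM2457 than in any other library.

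Over the 147 member bases tested singly, 18 rose and 35 fell with STM2457, that is 12.2% and 23.8%, beside 6.65% and 16.9% of all 188742 bases. Of the 147, 4 were listed in both STM2457 libraries and in no other, and entered the test through them alone. Bases that no other group listed in 2 libraries entered in the same way, among them the 3 HSP90AB1 bases within 50 nt of a start. How many of the 18 rises such bases make up was not counted. Within 50 nt of a start 4 of 23 rose (17.4%) and 0 fell, beside 19.6% and 1.08% of 18929 bases in all genes. Beyond 50 nt 14 of 124 rose (11.3%) and 35 fell (28.2%), beside 4.35% and 20.2% of 149041. Beyond 50 nt, 55 bases scored 10 or more in each U87-R library. Of these, 15 were listed in neither STM2457 library (27.3%), beside 31.3% of 37608 such bases in all genes. Of the 13 such bases within 50 nt of a start, 0 were lost in this way, beside 1.09% of 5249.

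The other genes of the chaperone network were taken from 7 lists of 88 genes. Of these, 73 had a called base and 69 were tested. Between U87-R and U87, limma called 0 of them, and 1 lower under either scaling. With STM2457, 8 rose and 19 fell, where 6.29% of all genes rose and 37.8% fell, and the median was -0.29 beside -0.68 over all genes. The 8 include DNAJC2 and ST13, which passed the filter on low sums only through the STM2457 libraries. Centring gave 18 higher and 14 lower, and scaling to the mean total 19 higher and 12 lower. Beyond 50 nt of a start, 7 of 62 rose and 28 fell, beside 4.8% and 54.6% of all genes, which became 23 and 15 with centring. Within 50 nt, 1 of 43 rose and 0 fell, beside 22.5% and 0.868%.

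**Figure D5:**
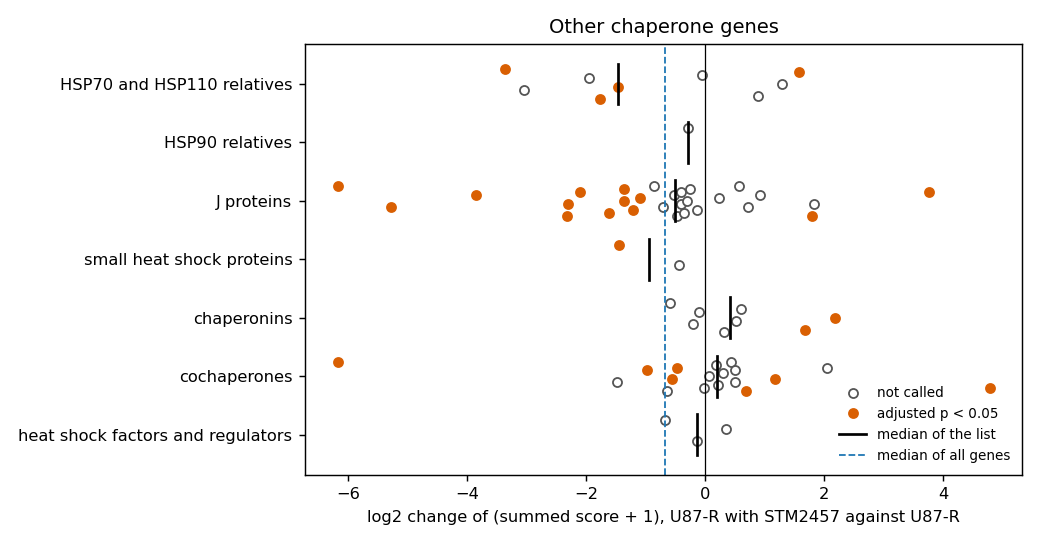
Change of log2(sum + 1) with STM2457 in U87-R (x axis) for the tested genes of each chaperone list; filled points passed an adjusted p of 0.05, black lines are list medians and the dashed line is the median of all genes. The HSP70 relatives have a median of -1.48, and the chaperonins one of 0.42, beside -0.68 for all genes.

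Among the HSP70 and HSP110 relatives, 1 of 9 tested rose and 3 fell, where 6.29% of all genes rose and 37.8% fell. HSPA5, the HSP70 of the endoplasmic reticulum, went from 918, 914 and 798 in U87-R to 261 and 253 with STM2457 (-1.76 ± 0.13, adjusted p = 6.02e-05). HSPA2 fell from 245 ± 59.8 to 32.0 ± 33.1 (-3.37, adjusted p = 0.00396), and by 2.10 without STM2457 replicate 2 or 4.65 without STM2457 replicate 1. HSPA9, the mitochondrial HSP70, rose from 81.2 ± 58.0 to 205 ± 44.0 (1.57, adjusted p = 0.0489), a call that was lost without U87-R replicate 2 (1.03) or 3 (adjusted p = 0.076 and 0.0987) and without either STM2457 library (0.268 and 0.149).

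Of the J proteins, 2 of 28 rose and 11 fell, against the same 6.29% and 37.8%. DNAJB5 fell from 145 ± 13.0 to 1.54 ± 2.18, and DNAJA2 from 107 ± 16.9 to 3.26 ± 4.61 (log2 changes of -6.18 and -5.29, adjusted p = 0.000142 and 0.000841). Leaving out single libraries, DNAJB5 ranged from -7.19 to -5.16 and DNAJA2 from -6.74 to -3.83, the ends being the fits without 1 STM2457 library. DNAJC13 rose from 95.1 ± 11.6 to 331 ± 3.24 (1.80, adjusted p = 0.00235). DNAJC2 was listed at 0 in 2 of 3 U87-R libraries and had 15.3 ± 2.03 with STM2457, a change of 3.76. It reached a sum of 10 in 2 libraries only through the STM2457 libraries, so its p-value is not given. Its call was lost without U87-R replicate 1 or 3 and without either STM2457 library.

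The chaperonins, subunits of the barrel that folds actin and tubulin and their mitochondrial relatives, had 2 of 8 higher and 0 lower, where 6.29% of all genes were higher and 37.8% lower. CCT3 went from 33.1, 28.2 and 32.0 in U87-R to 123 and 168 with STM2457 (2.18, adjusted p = 0.00674, and 0.0535 without STM2457 replicate 2), with no score within 50 nt of a start under STM2457. CCT2 went from 85.8 ± 33.1 to 263 ± 16.5 (1.68, adjusted p = 0.0227), a call lost without U87-R replicate 1 (adjusted p = 0.0627) and without either STM2457 library (0.147 and 0.116). Of the cochaperones, 3 of 18 rose and 4 fell, again beside 6.29% and 37.8%. STUB1, the ubiquitin ligase that acts on chaperone clients, rose from 109 ± 22.5 to 241 ± 18.3 (1.16, adjusted p = 0.00816, and 0.0556 without STM2457 replicate 2). ST13, counted among the 3 that rose, was called in 1 U87-R library, at 55.1, and had 105 ± 12.0 with STM2457, a change of 4.78. It passed the filter on low sums only through the STM2457 libraries, so its p-value is not given. The ST13 call was lost without U87-R replicate 1 or 3 and without either STM2457 library. Without U87-R replicate 2 the change was 6.72, with every remaining library without STM2457 at 0.

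CACYBP fell from 77.8 ± 11.3 to 0.0821 ± 0.116 (-6.18, adjusted p = 0.000163). BAG3, an HSP70 cochaperone that is itself induced by heat, fell from 449 ± 91.9 to 223 ± 10.0 (-0.99, adjusted p = 0.00775), and 73.3% of its remaining score lay within 50 nt of a start. The BAG3 call was lost without either STM2457 library (adjusted p = 0.0712 and 0.0512) and under both scalings (adjusted p = 0.0843 and 0.217). The small heat shock protein HSPB8 fell from 142 ± 21.3 to 51.1 ± 5.68 (-1.45, adjusted p = 0.00612), and all of what remained lay within 50 nt of a start. None of the 3 tested heat shock factors and regulators, and not the single tested HSP90 relative, passed the test.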

How the data were processed

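For each m6A-eCLIP library the authors deposited called bases, with a score that equals the smallest of 4 listed in its row. UMI-tools, cutadapt, STAR and hg38 are named in the submitters' processing notes. Their versions, the base caller and the score's formula are not given here. The authors also deposited reproducible sites and peaks per group, with a fraction of libraries and a combined score, used here only for counts.

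Called bases were given to the RefSeq gene whose span and strand held them (87.0% to 1 gene). Strands came from a RefSeq promoter table for 27303 of 38386 genes and from the called bases for 1792. HSF1, with no entry, took its known strand. limma 3.58.1 (R 4.3.3) was fitted with a mean-variance trend to log2(sum + 1), with 3 group means over 8 libraries, for features that reached a sum of 10 in 2 or more libraries, and to log2(score + 1) for bases that 2 or more libraries of 1 group listed. Left-out-library fits kept the same features. Scripts were tested on simulated data.

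Members and lists were chosen with earlier results of these data known. Named bases were the 3 highest per gene and some of the 3 largest called changes per direction. Others of these changes, in both directions, are not named. Named chaperones were up to 2 per direction, list and comparison. Other named bases (at starts, upstream of spans, and the DNAJB1 base at +2028) were chosen after their values were seen. Stretches are bases called in at least 2 libraries with gaps of at most 100 nt, drawn after seeing the data and not tested. By replicate number, deviations of U87 and U87-R libraries correlated at 0.101, 0.316 and 0.108 over genes, each over the limit of 0.1 set for taking numbers as pairs. So did U87 replicate 1 with U87-R replicate 3 (0.121) and U87 replicate 3 with U87-R replicate 1 (0.144), so the pairing is a reading of the data that the labels do not state.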

Additional observations from a re-analysis of the deposited data

How the results depend on the processing

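Of the alternatives tried for single genes and bases, 875 kept direction and side of the threshold, 104 lost a call, 22 gained one, 27 changed sign and 6 moved by more than the spread; a cause was not tested for any. HSPA8 and HSP90AB1 kept their whole-gene calls throughout.

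Between U87-R and U87, changes near 0 changed sign: HSP90AB1 was -0.12 with centring and -0.061 with scaled totals, HSPH1 -0.13, -0.069 and, with only scores of 10 or more, -0.051, DNAJB1 -0.00094 with centring, and HSPB1 0.0026 with extended spans; leaving out single libraries, HSPH1 ranged from -0.079 to 0.16 and HSPB1 from -0.21 to 0.21. With STM2457 and centring, HSPA1B was -0.63 at its start, 0.063 beyond it and -0.73 in the ratio, HSPB1 -0.61 at its start, HSP90AA1 0.30 for the whole gene, -0.79, 0.47 and -1.31, and the HSPA1B base at +2039 -0.028. HSP90AA1 was 0.43 with scaled totals. The HSPB1 base at +6 was 0.25 with the replicate block. Leaving out single libraries, it ranged from -0.68 to 0.38 and the HSPA1B base at +2039 from -0.023 to 0.19. By number of called bases in place of score, the HSPA1B start share fell by 4.12 points.

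The U87-R against U87 count of 133 became 68 with the replicate block, for which the numbers were taken to pair the samples, and 57 to 190 without single libraries (75 without U87 replicate 1, and in U87-R 57 and 61 without replicates 1 and 3). With STM2457 it ranged from 2988 to 5152 for whole genes, from 519 to 1140 at starts and from 1563 to 2433 for the ratio, each lowest without STM2457 replicate 1 (without STM2457 replicate 2 starts had 526 and the ratio 1664). At starts it was 674 with centring and 2842 with scaled totals, and for the ratio 975 with centring. U87-R and STM2457 libraries of the same number correlated at -0.0201 and -0.0226 and shared only a number; with the block the DNAJB1 start missed the threshold (1.07, adjusted p = 0.0507) and the STM2457 counts were 3971, 810, 5259 and 2176 in place of 4642, 1212, 5782 and 2556, and 5 chaperones rose and 16 fell. The split between higher and lower also moved for U87-R against U87 with centring, to 107 and 73 from 94 and 39, and beyond starts with scaled totals, to 1051 and 3549. With 2 STM2457 libraries and unknown depth, small changes could not be told from spread.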
